A study of Rattus norvegicus with 71 samples.

Results

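The genes described here are the transcription factors and coactivators through which cyclic AMP (cAMP) and calcium signals reach promoters: Creb1, its paralogues Atf1 and Crem, the histone acetyltransferase Crebbp, and the CREB-regulated coactivators Crtc1 and Crtc2. They were taken by gene symbol, and 6 of the 8 symbols listed had a row among the 17494 genes of the count table. Ep300 and Crtc3 were not analysed here. Creb1 entered the list because its level had differed between exposed and control animals, so its differences from controls are given as a description, with no test, and the other 5 genes were tested in those comparisons.

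RNA was measured by poly-A sequencing of brain tissue from 71 wild-type Sprague-Dawley pups of 27 litters on postnatal day 2. The sample labels name a coronal slice with hippocampus, cortex and subcortical tissue, while the series text names frontal cortex and hypothalamus. Pups of the saline control group (24 animals, 7 litters) came from dams given Freund's adjuvant and saline. In the maternal autoantibody-related autism antibody (MARA-AB) groups the dams were immunized in the same adjuvant with antigen peptides, and each pattern is named after its antigens: CRMP1+CRMP2 (8 animals, 4 litters), LDHA/B+CRMP1+STIP1 (25 animals, 9 litters), CRMP1+GDA (6 animals, 3 litters) and STIP1+NSE (8 animals, 4 litters). The antigens are the collapsin response mediator proteins CRMP1 and CRMP2, the lactate dehydrogenases LDHA and LDHB, the stress-induced phosphoprotein STIP1, guanine deaminase (GDA) and neuron-specific enolase (NSE). The title series of the labels form 2 batches. The first had 12 control pups beside 16 of LDHA/B+CRMP1+STIP1, and the second had 12 control pups, 9 of LDHA/B+CRMP1+STIP1 and all pups of the remaining patterns. Exposure was given to the dam, so littermates share it, and p-values that treat pups as replicates do not allow for this.

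CREB1 binds DNA as a dimer at the cAMP response element (CRE). Protein kinase A, calmodulin-dependent kinases and ribosomal S6 kinases phosphorylate it, which lets CREBBP bind and acetylate the surrounding histones. CRTC proteins enter the nucleus once calcineurin dephosphorylates them and bind the CREB dimer itself, so kinase and phosphatase signals meet at the same promoters. In the developing brain the pathway is known for its part in neuronal survival, dendrite growth and activity-dependent transcription. ATF1 binds the same element and can stand in for CREB1, while Crem encodes activators and repressors, among them the inducible repressor ICER. Counts per gene do not separate these isoforms, and they say nothing of phosphorylation or of where the proteins are in the cell.

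To show what a CRE looks like near these genes, RefSeq windows of 300 bases around gene starts (build GRCr8, 250 bases before to 50 after the start) were searched on both strands for the palindrome TGACGTCA and for the shorter TGACG, which is a part of it and reads CGTCA on the other strand. Among 33469 windows of all genes, 1.83% held the palindrome and 21.2% the shorter site. Of the 6 genes, 5 had a window and Atf1 had none in the table. The windows of Crebbp and Crtc1 held neither sequence, and that of Crtc2 held the shorter site once. The first window of Creb1 (chr9:73397259-73397558, plus strand) held the shorter site 3 times and no palindrome. The most downstream of the 3 windows of Crem (chr17:58985240-58985539, plus strand) held the palindrome 2 times. Both are printed 5′ to 3′ with the sites in capitals, because they show a promoter with short sites only beside one with complete elements. Other windows of these 2 genes differed from those printed. The first window of Crem held the shorter site 2 times and no palindrome, and its second window held 1 palindrome. The second window of Creb1 held neither sequence. A match of letters is not a measured binding site.
Creb1: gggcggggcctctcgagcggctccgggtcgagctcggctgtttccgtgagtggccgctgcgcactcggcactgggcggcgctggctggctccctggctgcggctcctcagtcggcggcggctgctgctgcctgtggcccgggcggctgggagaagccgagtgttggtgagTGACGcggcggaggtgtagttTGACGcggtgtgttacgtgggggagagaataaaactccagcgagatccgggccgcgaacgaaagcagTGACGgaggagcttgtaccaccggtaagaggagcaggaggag
Crem: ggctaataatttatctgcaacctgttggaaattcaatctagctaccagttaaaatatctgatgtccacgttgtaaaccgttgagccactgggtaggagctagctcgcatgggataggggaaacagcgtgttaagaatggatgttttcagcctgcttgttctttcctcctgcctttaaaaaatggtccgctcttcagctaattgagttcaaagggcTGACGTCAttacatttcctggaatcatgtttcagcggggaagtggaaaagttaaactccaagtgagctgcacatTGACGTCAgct

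Total counts ran from 24880182 to 36234952 per animal, with a median of 28439195, and no animal had fewer than 170 counts of any of the 6 genes. The slices carried neuronal transcripts throughout (Tubb3, Stmn2, Dcx, Neurod6 and Neurod2 summed to between 7102 and 11029 CPM, counts scaled to library size with trimmed-mean factors), and all 3 hippocampal markers were present (sum 23.2 to 101 CPM). The 5 thalamic markers summed to between 113 and 208 CPM in batch 1 and between 205 and 1098 CPM in batch 2, and the 5 choroid plexus markers to between 0.814 and 560 CPM against between 136 and 3245 CPM. Slice content therefore moved with batch, and its part in the values below was not tested. In bulk tissue, fewer cells of a type and less RNA per cell cannot be told apart.

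Per kilobase of annotated exon (RPKM), Crtc1 was the most abundant of the 6 genes. Its median was 41.6 RPKM over 71 animals, and it lay above Creb1 in 71 of 71. Creb1 (median 16.4 RPKM) and Crtc2 (median 15.1 RPKM) could not be ordered, since Creb1 was the higher in 37 of 71 animals. Crebbp followed at 8.83 RPKM, below Crtc2 in 71 of 71 animals. Atf1 had a median of 6.00 RPKM and lay below Crebbp in 69 of 71. Crem was the lowest at 2.06 RPKM and lay below Atf1 in 71 of 71 animals. Creb1 is annotated on chromosome 9, bases 65903728 to 65967003 of build rn7, with 1126 bases of exon, and Crebbp on chromosome 10, bases 11335953 to 11461887, with 10106 bases of exon. The order in RPKM depends on such annotated lengths and is not the order in CPM. No other gene of the table overlaps any of the 6.

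Creb1 was the gene with the largest difference from controls among the 6 in the comparison of all exposed animals. Over 24 controls its level was 16.6 ± 2.34 CPM (SD) and over 47 exposed animals 19.7 ± 4.22 CPM, a log2 fold change of 0.28 ± 0.062 (SE) with the first surrogate variable in the model. In batch 1 the 12 controls lay between 14.9 and 20.3 CPM with a median of 17.4, and the 16 LDHA/B+CRMP1+STIP1 pups between 18.2 and 25.7 CPM with a median of 22.7. Of these 16 pups, 13 lay above the highest control of their batch. The means of the 3 control litters ran from 17.4 to 17.7 CPM and those of the 4 exposed litters from 21.5 to 23.7 CPM, with no overlap. Litter means separated in this direction in 1.52% of all genes. Creb1 was chosen on the contrast of exposed animals with controls, so this is a description. In the same animals the 4 cortical markers summed to a median of 1187 CPM in exposed pups and 1035 CPM in controls. The choroid plexus markers summed to 39.5 and 10.1 CPM. Neuronal markers went the other way, at 9065 CPM in exposed pups and 9585 CPM in controls. So did markers of radial glia and astrocytes, at 1169 and 1286 CPM. The part of slice content in the difference was not tested.

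In batch 2 the groups overlapped. Controls lay between 12.9 and 21.97 CPM of Creb1 with a median of 15.3, and LDHA/B+CRMP1+STIP1 pups between 12.4 and 25.7 CPM with a median of 19.02. In 8 of these 9 pups the level was above the control median. Within each batch, the log2 fold change of this pattern was 0.35 ± 0.060 (batch 1) and 0.25 ± 0.10 (batch 2). The difference between these effects was -0.09 ± 0.11 (adjusted p = 1.00, edgeR), an interval from -0.31 to 0.13, so a smaller effect in batch 2 was not detected and not excluded.

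Creb1 in CRMP1+CRMP2 pups lay between 15.6 and 30.8 CPM with a median of 19.8, and all 8 were above the median of the 12 controls of batch 2. Its log2 fold change was 0.36 ± 0.092. The 4 litter means were 16.97, 17.2, 21.6 and 26.3 CPM, against 14.1, 14.4, 15.53 and 19.9 CPM in the control litters of batch 2. The highest mean belonged to dam 9_6, and without that litter the log2 fold change was 0.24.

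In CRMP1+GDA, pups lay between 12.2 and 26.96 CPM of Creb1 with a median of 16.998 (log2 fold change 0.24 ± 0.12). Their 3 litter means were 12.8, 16.998 and 24.9 CPM, a wider range than that of the control litters. Without the highest litter, of dam 9_8, the log2 fold change was -0.05. STIP1+NSE pups lay between 13.4 and 22.8 CPM with a median of 14.7 (log2 fold change 0.05 ± 0.096), and 3 of 8 were above the control median. Of their 4 litters 3 had means between 13.8 and 14.7 CPM and the other, of dam 9_7, had 21.7 CPM. Without it the log2 fold change was -0.12.

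**Figure D1:**
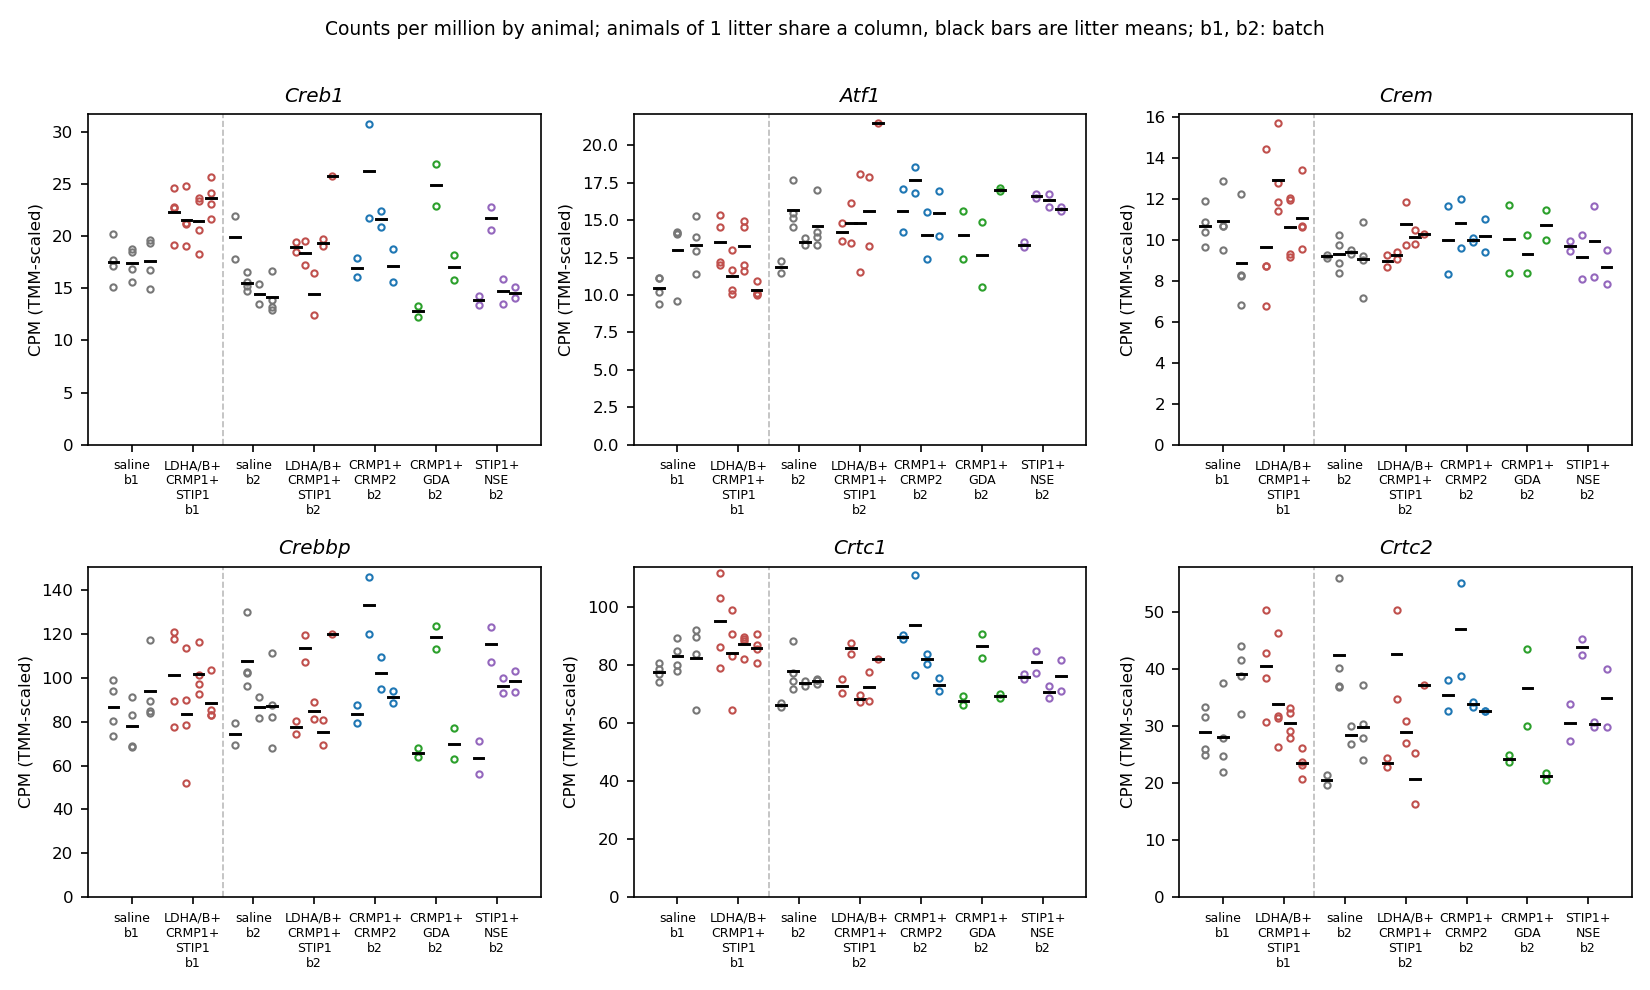
CPM of each gene in every animal (circles, y axis from 0), by group and batch, with a column per litter and black bars at litter means. In batch 1, the Creb1 litter means of LDHA/B+CRMP1+STIP1 (21.5 to 23.7 CPM) stand above those of controls (17.4 to 17.7 CPM), with animals of both groups overlapping. Litter means separate in this direction in 1.52% of all genes. In batch 2 the litter means of Creb1 overlap between each group and controls.

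In the comparison of all exposed animals with controls, both paralogues had smaller fold changes than Creb1, which had been chosen on this contrast. Atf1 lay between 9.37 and 17.7 CPM in controls (median 13.8) and between 10.004 and 21.5 CPM in exposed pups (median 14.5), a log2 fold change of 0.07 ± 0.057 (adjusted p = 0.694, edgeR's quasi-likelihood test). Crem lay between 6.82 and 12.9 CPM in controls (median 9.49) and between 6.76 and 15.7 CPM in exposed pups (median 9.91), a log2 fold change of 0.09 ± 0.058 (adjusted p = 0.566, edgeR). In both genes the ranges of the groups overlapped. Of the 5 tested genes, 0 passed FDR < 0.1 (the Benjamini-Hochberg adjusted p over all genes, the threshold for a call throughout) in this comparison, where 0.0321% of all genes did, and 1 of 5 had an unadjusted p under 0.05, as did 10.3% of all genes. That gene was Crtc1 (log2 fold change 0.09 ± 0.038, adjusted p = 0.410, edgeR).

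The coactivators overlapped as widely. Crebbp lay between 68.0 and 130 CPM in controls (median 86.1) and between 52.1 and 146 CPM in exposed pups (median 92.8), with a log2 fold change of 0.07 ± 0.074 (adjusted p = 0.758, edgeR). Crtc2 lay between 19.7 and 55.9 CPM in controls and between 16.2 and 55.1 CPM in exposed pups, with medians of 30.9 and 31.3 CPM and a log2 fold change of 0.01 ± 0.094 (adjusted p = 0.971, edgeR). Crtc1 lay between 64.4 and 91.9 CPM in controls (median 75.9) and between 64.4 and 111 CPM in exposed pups (median 81.7).

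Tested pattern by pattern, 1 gene passed the threshold, in CRMP1+CRMP2. Crtc1, the CRTC enriched in brain, lay between 70.8 and 111 CPM in these 8 pups (median 81.9), between 65.5 and 88.1 CPM in the 12 controls of batch 2 (median 74.4) and between 64.4 and 91.9 CPM in the 12 controls of batch 1 (median 80.2). Pups above the median of their own batch's controls numbered 7 of 8, and 3 of 8 exceeded the highest of those controls. The log2 fold change against all 24 controls was 0.17 ± 0.058 (adjusted p = 0.0735, edgeR). In this comparison 11.4% of all genes passed the threshold with 4.83% called higher and 6.56% lower, and 1 of 5 genes is too few to set against those shares. The call was lost within batch 2 (adjusted p = 0.167), with litter as a random effect (0.256, limma), with counts summed per litter (0.436), and without litter 9_1 (0.109), litter 9_11 (0.128) or litter 9_6 (0.432).

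The other tested genes had positive log2 fold changes in CRMP1+CRMP2 without passing the threshold: 0.19 ± 0.091 for Atf1 (adjusted p = 0.193, edgeR), 0.10 ± 0.090 for Crem (0.482), 0.19 ± 0.11 for Crebbp (0.267) and 0.24 ± 0.14 for Crtc2 (0.297). The median over the 5 tested genes was 0.19, beside 0.0073 over all genes. Crem was the lone gene of the 6 whose 4 litter means (9.96 to 10.8 CPM) all lay above the 4 control litter means of batch 2 (9.05 to 9.41 CPM), a pattern found higher in 1.28% of all genes in that comparison. Its animals overlapped.

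In LDHA/B+CRMP1+STIP1, CRMP1+GDA and STIP1+NSE, 0 of the 5 tested genes passed FDR < 0.1 (edgeR), and 0 had an unadjusted p under 0.05, as did 7.17%, 3.65% and 3.19% of all genes in that order. The threshold was passed by 0.0157% of all genes in LDHA/B+CRMP1+STIP1, by 0.0% in CRMP1+GDA and by 0.0474% in STIP1+NSE. Their log2 fold changes ran from -0.06 (Crtc2) to 0.12 (Crem) in LDHA/B+CRMP1+STIP1, from -0.13 (Crtc2) to 0.07 (Crem) in CRMP1+GDA and from -0.02 (Crem) to 0.18 (Crtc2) in STIP1+NSE. DESeq2 also called 0 of the 5 in each of the 3 patterns, beside 0.118%, 0.0% and 0.0237% of all genes in that order. In batch 1 alone, Crtc1 had litter means of 84.2 to 94.9 CPM in the 4 LDHA/B+CRMP1+STIP1 litters and of 77.5 to 83.0 CPM in the 3 control litters, a pattern found higher in 1.52% of all genes in that comparison. It did not pass the test (log2 fold change 0.12 ± 0.061, adjusted p = 0.921, edgeR; 0.0161% of all genes passed and 5.45% had an unadjusted p under 0.05). In batch 2 the same pattern gave 0.02 ± 0.056 for Crtc1 (adjusted p = 0.972, edgeR; 0.0% of all genes passed and 5.62% had an unadjusted p under 0.05).

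**Figure D2:**
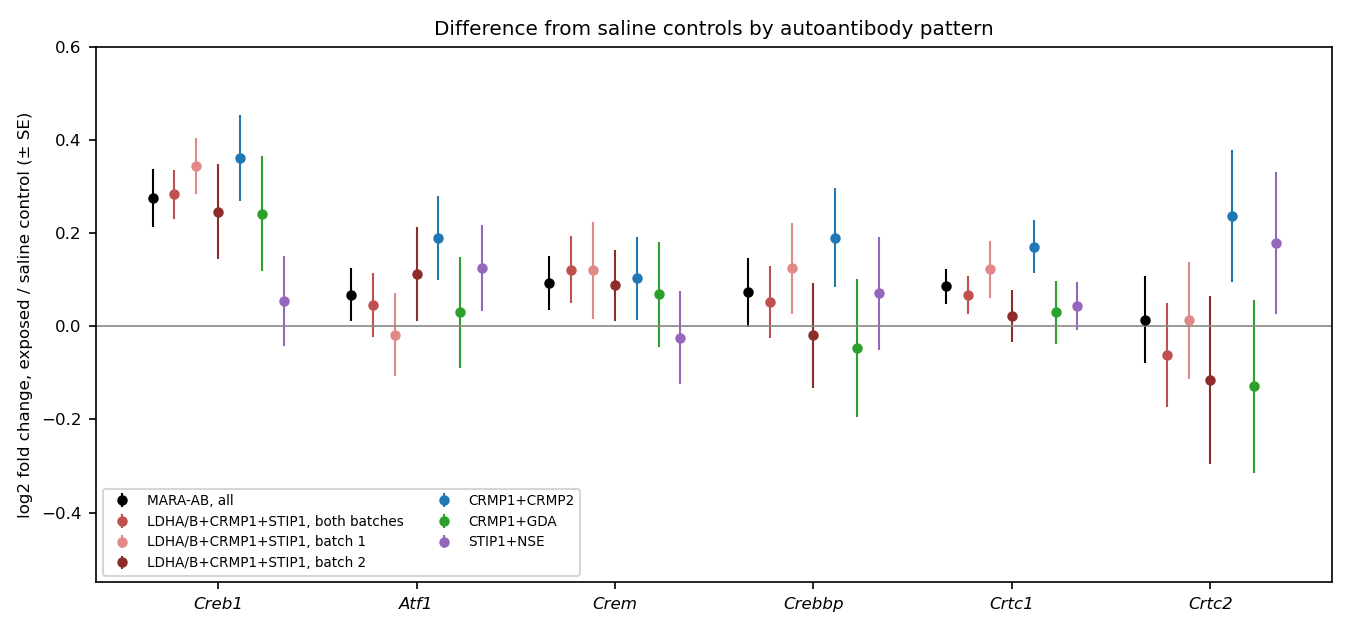
Log2 fold change of each gene against saline controls (y axis, bars are ± SE) for all MARA-AB exposed animals and for each pattern, with LDHA/B+CRMP1+STIP1 also by batch. Creb1 lies at or above 0.24 in every comparison but STIP1+NSE (0.05), and the other genes lie within 0.24 of 0.

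Tested directly among the 4 patterns of batch 2, 0 of Atf1, Crem, Crebbp, Crtc1 and Crtc2 differed (adjusted p from 0.817 to 0.957, edgeR's quasi-likelihood test; 0.0% of all genes passed), and 0 had an unadjusted p under 0.05, as did 4.94% of all genes. Between the batches, the effect of LDHA/B+CRMP1+STIP1 differed in 0 of the 6 genes (0.110% of all genes passed). Males and females differed in 0 of the 6 (0.0641% of all genes passed), with Creb1 medians of 17.8 CPM in 35 males and 18.6 CPM in 36 females and a log2 fold change of -0.01 ± 0.060 (adjusted p = 0.998, edgeR). The effect of exposure differed between the sexes in 0 of the 6 (0.0% of all genes passed). The estimate for Creb1 was 0.17 ± 0.13 higher in males, with an interval from -0.08 to 0.42. For the effect of LDHA/B+CRMP1+STIP1 by batch, 0 of the 6 had an unadjusted p under 0.05, beside 3.05% of all genes. Between the sexes and for the effect of exposure by sex the count was also 0, beside 4.66% and 3.54% of all genes. Some litters of batch 2 held sequenced pups of a single sex, so sex and litter are partly tied there.

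Between the saline controls of the batches, 2 of the 6 genes passed the threshold, as did 41.5% of all genes. Atf1 was higher in batch 2, between 11.5 and 17.7 CPM (median 14.05) against between 9.37 and 15.3 CPM (median 12.2), a log2 fold change of 0.23 ± 0.091 (adjusted p = 0.0511, edgeR). Crtc1 was lower in batch 2 (log2 fold change -0.12 ± 0.054, adjusted p = 0.0803, edgeR). Creb1 gave -0.16 ± 0.077 (adjusted p = 0.103, edgeR). The groups of 12 overlapped in each gene. With litter as a random effect neither call held (adjusted p = 0.259 for Atf1 and 0.267 for Crtc1, limma). Atf1 also lost its call without litter 9_10 (0.405), 9_25 (0.140) or IgG1 (0.289), and Crtc1 lost it without any of 5 of the 7 litters.

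The litter carried much of the spread. Within groups and batches, the fraction of the variance of Creb1 that lay between litters was 0.661, above that of 97.8% of genes, whose median was 0.267. Crtc2 followed at 0.617 and Crebbp at 0.517. Atf1 had 0.368 and Crtc1 0.181, and for Crem the estimate was below 0 (-0.0762). The SD of Creb1 between litters was 0.22 on the log2 scale and within litters 0.15.

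In batch 2, the litters of the consecutively numbered dams 9_6 to 9_10, which hold a litter of each of the 5 groups, stood high in several of the genes. This set was noticed after the values were seen, and the labels do not say what its numbering marks. The study's methods give litters collected within days of each other a shared cohort, which the labels do not carry. Crebbp litter means were 108 to 133 CPM in these 5 litters and 63.6 to 120 CPM in the other 15, and the 5 ranked 1, 3, 4, 5 and 6 of 20. Crtc2 litter means were 36.7 to 46.9 CPM against 20.6 to 37.2 CPM, with ranks 1, 2, 3, 4 and 6. Crtc1 litters of the set ranked 1, 3, 4, 7 and 8. The other genes were more spread, with ranks 2, 4, 7, 11 and 19 for Atf1 and 1, 13, 14, 15 and 17 for Crem. The share of all genes as high in these litters is not given here.

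Creb1 levels differed within the set, which holds 1 litter per group, so group and litter cannot be told apart there. The CRMP1+CRMP2, CRMP1+GDA and STIP1+NSE litters ranked 1, 3 and 4 of 20, at 26.3, 24.9 and 21.7 CPM, and the LDHA/B+CRMP1+STIP1 and control litters ranked 9 and 13, at 18.4 and 15.53 CPM. Total counts of the 12 pups of these dams ran from 24880182 to 28929430 and of the other 31 from 25818198 to 36234952. Thalamic markers summed to a median of 887 CPM against 757 CPM and choroid plexus markers to 566 CPM against 1124 CPM, and their part in the gene levels was not tested. Without these 5 litters the log2 fold change of Creb1 was 0.21 over all exposed animals, 0.29 in LDHA/B+CRMP1+STIP1, 0.23 in CRMP1+CRMP2, -0.06 in CRMP1+GDA and -0.12 in STIP1+NSE, and that of Crtc1 in CRMP1+CRMP2 was 0.15 (adjusted p = 0.255, edgeR). With the set as a covariate in batch 2, Crtc1 (adjusted p = 0.0122), Atf1 (0.0617) and Crtc2 (0.0667) passed in CRMP1+CRMP2 (edgeR), where 30.6% of all genes did, and these fits treat littermates as independent.

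**Figure D3:**
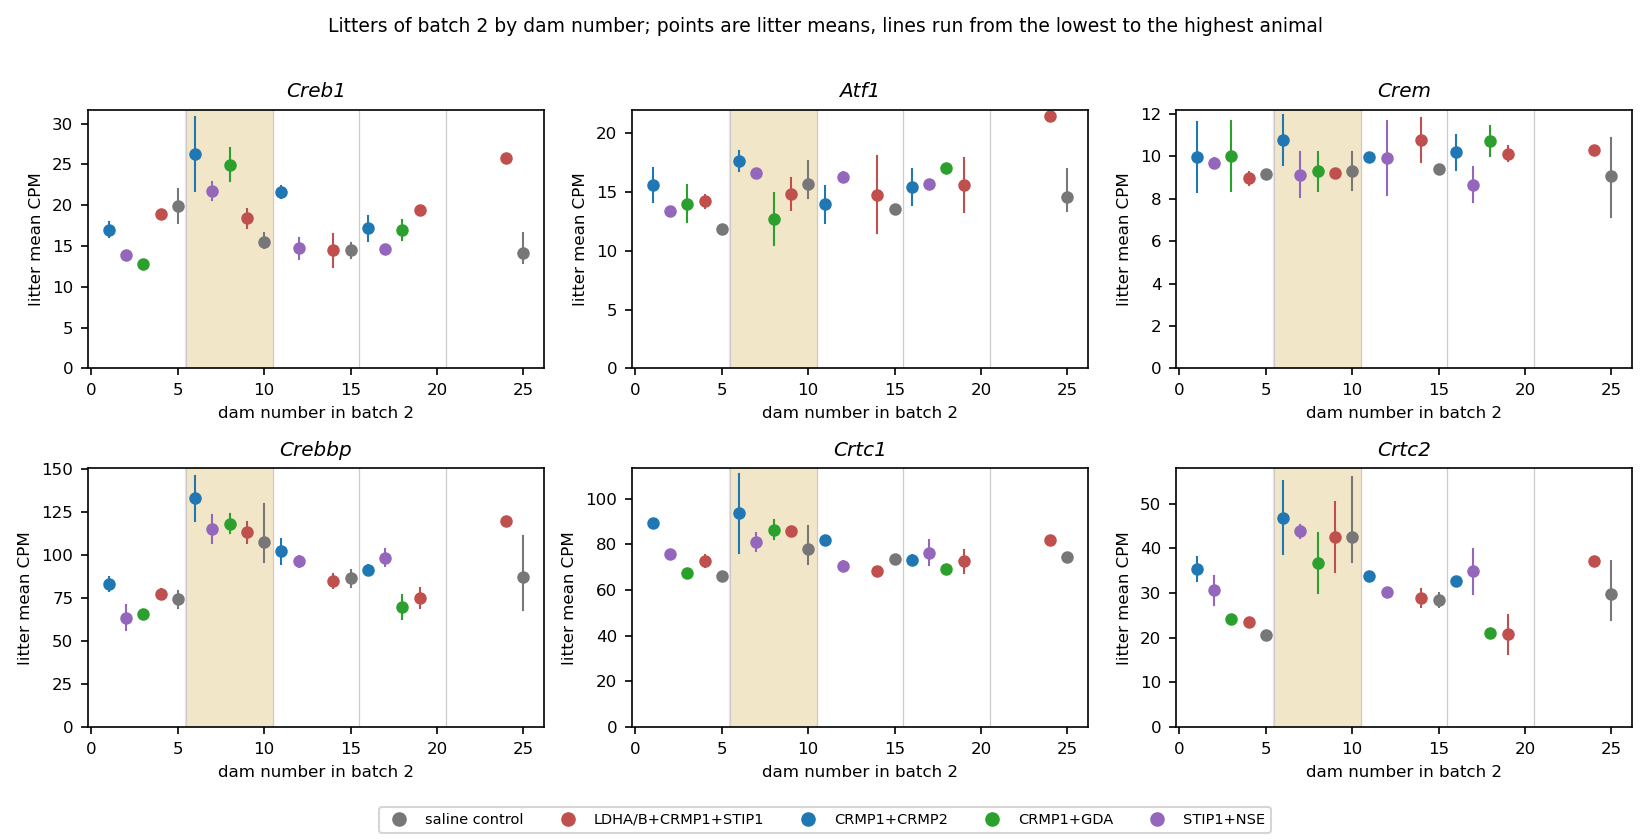
Litter means in CPM (points, y axis from 0) of the 20 litters of batch 2 by dam number, with lines from the lowest to the highest animal and colours for the 5 groups; the shaded band marks dams 9_6 to 9_10. Crebbp and Crtc2 are high across the band in all 5 litters, while Creb1 is high there in 3 of the 5.

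To see which members moved together, litter means of log2 CPM were centred within group and batch and correlated over the 27 litters, with 15 pairs tested by 100000 two-sided permutations of litters within group and batch. After Benjamini-Hochberg adjustment, 3 of 15 pairs passed 0.05, all among the coactivators and all positive. How many other pairs of genes reach such coefficients across litters is not given here, so the count does not set the coactivators apart from other genes. Crebbp and Crtc2 gave r = 0.79 (permutation p = 2e-05, adjusted p = 0.0003; rho = 0.76, permutation p = 9e-05, adjusted p = 0.00135). Crtc1 and Crtc2 gave r = 0.75 (permutation p = 0.00011, adjusted p = 0.000825; rho = 0.70, permutation p = 0.00062, adjusted p = 0.00465). Crebbp and Crtc1 gave r = 0.69 (permutation p = 0.0029, adjusted p = 0.0144; rho = 0.66, permutation p = 0.0040, adjusted p = 0.0201).

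Creb1 and Crebbp gave r = 0.62 across litters, which did not pass the correction (permutation p = 0.016, adjusted p = 0.0613; rho = 0.51, permutation p = 0.036, adjusted p = 0.137). With the other genes its r ran from -0.10 (Crem) to 0.52 (Crtc1). Crem had negative coefficients with Creb1, Atf1 and all 3 coactivators (-0.36 to -0.03), and 0 of these 5 pairs passed. Without the 2 litters farthest from the median of the first gene, the 3 coactivator pairs gave 0.80, 0.75 and 0.70 in the same order. Within batch 2 (20 litters) they gave 0.85, 0.80 and 0.71. Within batch 1 (7 litters) they gave 0.48, 0.47 and 0.45, and 0 pairs passed there. Without dams 9_6 to 9_10 they gave 0.59, 0.53 and 0.31, and 0 of 15 pairs passed 0.05 after adjustment (lowest adjusted p = 0.0687), so these relations rest in part on those litters. In the same 22 litters Atf1 gave 0.69 with Crebbp (permutation p = 0.010, adjusted p = 0.0687), 0.58 with Crtc1 (permutation p = 0.014, adjusted p = 0.0687) and 0.63 with Crtc2 (permutation p = 0.022, adjusted p = 0.082), against 0.40, 0.29 and 0.41 over all 27 litters. All libraries share the scaling to a total, which ties the levels of genes to each other.

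**Figure D4:**
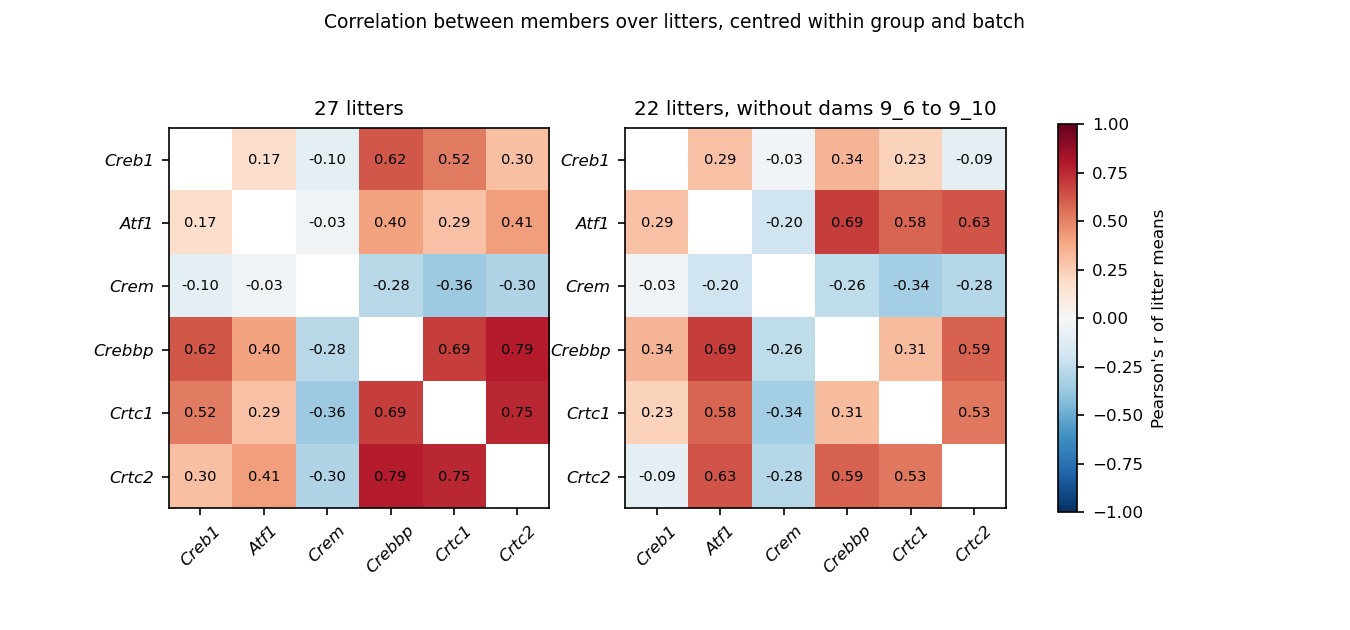
Pearson's r between litter means (log2 CPM, centred within group and batch) for each pair of genes, over 27 litters and without the 5 litters of dams 9_6 to 9_10 (colour scale from -1 to 1). Among Crebbp, Crtc1 and Crtc2 the coefficients are 0.69 to 0.79 over all litters and 0.31 to 0.59 without the 5.

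Over the 71 animals, centred in the same way, the genes most like Creb1 in log2 CPM were Syncrip (r = 0.77), Iws1 (0.76), Top1 (0.76), Srsf10 (0.74) and Rnf20 (0.74). They encode an RNA-binding protein, a transcription elongation factor, a DNA topoisomerase, a splicing factor and a histone ubiquitin ligase. The most opposite were Faim2 (-0.70), Hsbp1 (-0.69) and Zfp580 (-0.69). Crebbp (0.48) ranked 511 of 12476 genes in likeness to Creb1 and Crtc1 (0.39) ranked 1103. In likeness to Crebbp, Crtc2 (0.70) ranked 778 of 12476 and Crtc1 (0.64) ranked 1152. For Crtc1 the ranks were 580 (Crebbp) and 708 (Crtc2, 0.62), and for Crtc2 they were 810 (Crebbp) and 1208 (Crtc1). Many other genes were thus more like each coactivator than its fellow coactivators were. The coactivators had closer partners, named after their values were seen: Crebbp with Nfat5, Rfx7 and Arid1a (0.90 each), Crtc2 with Leng8 (0.94) and Snrnp70 (0.93), and Crtc1 with Dvl3 (0.86). Crem, its partner likewise named after its values were seen, was most like Rgs2 (0.58), a regulator of G-protein signalling.

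Genes around the 6 were followed as lists, chosen by their known roles, of CREB/ATF relatives (13 tested), upstream kinases and phosphatases (33 tested), enzymes of cAMP synthesis and breakdown (20 tested) and known CREB targets (31 tested). In the comparison of all exposed animals with controls, 0 genes of any list passed FDR < 0.1 (edgeR), beside 0.0321% of all genes. At an unadjusted p under 0.05 there were 0, 2, 3 and 4 genes, beside 10.3% of all genes, with list medians of 0.03, -0.01, -0.03 and -0.06 on the log2 scale, beside 0.0029 over all genes. The smallest p among targets belonged to Nr4a1, an immediate-early gene (log2 fold change -0.24 ± 0.081, adjusted p = 0.304, edgeR), and to Scg2, a secretory granule protein (-0.18 ± 0.066, adjusted p = 0.346, edgeR). Those of the kinase and phosphatase list were Ppp3r1 (-0.06 ± 0.024, adjusted p = 0.379, edgeR) and Prkar1b (-0.08 ± 0.034, adjusted p = 0.379, edgeR). Among enzymes of cAMP they were Pde7a (0.12 ± 0.048) and Adcy6 (0.10 ± 0.051), and among the relatives Creb3l2 (0.17 ± 0.0995) and Creb3l1 (0.14 ± 0.086).

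In CRMP1+CRMP2, where 11.4% of all genes passed, 8 of 33 kinases and phosphatases did, 7 of them lower and 1 higher. The count was 0 of 33 within batch 2 (1.01% of all genes) and 0 of 33 with litter as a random effect (0.063%). Prkar1b, a regulatory subunit of protein kinase A, lay between 492 and 672 CPM in the 8 pups and between 610 and 748 CPM in the 12 controls of batch 2 (log2 fold change -0.21 ± 0.044, adjusted p = 0.00876, edgeR). Ppp3r1, the regulatory subunit of calcineurin, fell by 0.15 ± 0.040 on the log2 scale (adjusted p = 0.0288, edgeR). Prkacb, a catalytic subunit of protein kinase A, fell by 0.18 ± 0.053 (adjusted p = 0.0415, edgeR), and the calmodulin-dependent kinase Camk1 by 0.19 ± 0.056 (adjusted p = 0.0466, edgeR). The higher gene, named after its values were seen, was Rps6ka3, a ribosomal S6 kinase, at 63.4 to 99.2 CPM in the 8 pups (median 77.5), 52.1 to 86.9 CPM in controls of batch 2 (median 66.9) and 64.7 to 84.1 CPM in controls of batch 1 (median 70.9), with all 3 ranges overlapping (log2 fold change 0.19 ± 0.069, adjusted p = 0.0890, edgeR).

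Of the 31 CREB targets 5 passed in CRMP1+CRMP2, 4 lower and 1 higher, beside 11.4% of all genes (6.56% lower and 4.83% higher). The count was 0 of 31 within batch 2 (1.01% of all genes) and 0 of 31 with litter as a random effect (0.063%). The list's median was -0.33, beside 0.0073 over all genes. Scg2 lay between 50.2 and 204 CPM in the 8 pups (median 148), between 109 and 231 CPM in controls of batch 2 (median 194) and between 40.3 and 127 CPM in controls of batch 1 (median 74.8), with all 3 ranges overlapping (log2 fold change -0.41 ± 0.076, adjusted p = 0.00362, edgeR). Nptx2, a synaptic pentraxin, gave -0.38 ± 0.098 (adjusted p = 0.0265, edgeR) and the interneuron neuropeptide gene Sst -0.53 ± 0.17 (adjusted p = 0.0660, edgeR). The clock gene Per2 rose by 0.38 ± 0.099 (adjusted p = 0.0265, edgeR). These counts depended on the litter of dam 9_6: without it 0 of 33 and 0 of 31 passed, beside 0.324% of all genes, and without dams 9_6 to 9_10 1 of 33 and 1 of 31 did, beside 1.28%. In the 2 pups of dam 9_6 the neuronal markers summed to 7102 and 8906 CPM, the former the lowest of all 71 animals, the cortical markers to 377 and 1169 CPM and the thalamic markers to 337 and 980 CPM, and their part in these counts was not tested. With counts summed per litter, 0 of either list and 0.0% of all genes passed. Enzymes of cAMP and the CREB/ATF relatives had 0 calls in CRMP1+CRMP2. The lists had 0 calls in each of the other patterns, beside 0.0474% of all genes in STIP1+NSE, 0.0157% in LDHA/B+CRMP1+STIP1 and 0.0% in CRMP1+GDA. The smallest p in STIP1+NSE was that of Rps6ka1, a ribosomal S6 kinase (-0.20 ± 0.058, adjusted p = 0.826, edgeR), in LDHA/B+CRMP1+STIP1 that of Crh (0.26 ± 0.091, adjusted p = 0.436, edgeR) and in CRMP1+GDA that of Camk2a (-0.41 ± 0.14, adjusted p = 0.999, edgeR).

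Exon length moved with the fold changes in some comparisons. Spearman's rho between a gene's log2 fold change and its exon length, across genes, was 0.18 for all exposed animals, 0.31 for CRMP1+CRMP2 and 0.02 for LDHA/B+CRMP1+STIP1. With genes in 10 bins by exon length, Creb1 lies in bin 2, whose median log2 fold change was -0.01, -0.05 and -0.00098 in these comparisons, below its own 0.28, 0.36 and 0.28. Crebbp lies in bin 10, the longest, with medians of 0.03, 0.11 and 0.01 beside its own 0.07, 0.19 and 0.05. The part of length in these values was not tested.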

How the data were processed

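The authors aligned paired-end reads to build rn7 with STAR 2.5.4b and counted them per gene with featureCounts, per the submitters' processing notes, and deposited raw counts for 17494 genes with each gene's annotated exon length (used for RPKM). Among counts of 1 to 9, 74.5% were even, so counts were also halved as an alternative. Total counts per animal were 24880182 to 36234952, which with the number of litters limits precision. Counts were scaled with TMM and tested with edgeR 4.0.16 (quasi-likelihood, R 4.3.3) with 1 surrogate variable from sva 3.50.0 where exposure was compared with control, after a filter of at least 1 CPM in 8 samples (over 1 CPM in 2 samples for single patterns), at FDR < 0.1 (Benjamini-Hochberg) over all genes. Batches are the title series of the labels. DESeq2 1.42.0, limma 3.58.1 with litter as a random effect, litter sums, other scalings and left-out litters were alternatives. Scripts were tested on simulated data. Named genes are the members, the 5 most and 3 least like Creb1, and in each list up to 4 genes of smallest p past the threshold, or otherwise the 2 of smallest p. Other genes were named after their values were seen. The members and lists were chosen with earlier results of these data known.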

Additional observations from a re-analysis of the deposited data

Results flagged for a closer look

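In 24 sets of 4 to 10 animals (4 groups by 6 genes), 2 had an animal far from the others, where chance alone would give about 1 in 20. These are too few to tell from that rate, which also treats littermates and sets as independent. Both flags were in CRMP1+CRMP2, in a pup of the litter of dam 9_6. Its Creb1 level was 30.8 CPM, with the other 7 pups between 15.6 and 22.4 CPM, a gap of 0.551 of the range. A Crtc2 level of 55.1 CPM stood apart from 32.6 to 38.7 CPM in the others, a gap of 0.729 of the range. The 12 tests of a difference in effect between batches or sexes passed the threshold for 0 of the 6 genes.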

How the results depend on the processing

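In CRMP1+CRMP2 against controls, 1 of the 5 tested genes was called. It was 0 within batch 2 (1.01% of all genes called), with batch and sex (3.87%), with litter as a random effect (0.063%), with litter sums (0.0%) and without dams 9_6 to 9_10 (1.28%), 2 with PC1 and PC2 (18.9%), 3 with the dam-number set in batch 2 (30.6%), and 0 to 1 when leaving out a litter (0.324% to 22.8%). Among patterns 1 was called with the dam-number set (11.8%). Between control batches it was 0 with litter as a random effect (22.4%), 3 with DESeq2 (42.5%) and with RLE size factors (41.6%), and 0 to 2 when leaving out a litter (31.3% to 41.9%). Of 15 correlations, 8 passed over 71 animals, 0 within batch 1 and 0 without dams 9_6 to 9_10. Creb1 changed sign in CRMP1+GDA (-0.047 to 0.44 leaving out a litter, -0.060 without dams 9_6 to 9_10) and in STIP1+NSE (-0.12 to 0.13, and -0.12), Crtc2 between control batches (-0.31 to 0.18), Scg2 in CRMP1+GDA (0.021 with the dam-number set), and the uncalled Creb3l1 in all exposed animals (-0.061 with PC1 to PC7), among others without a call. The cause was not tested. Calls over all genes ran from 0 to 3859 in CRMP1+CRMP2. Of 1398 alternative values, 1269 were counted as unchanged. Tested genes had to keep their side of the threshold, and sign changes counted only with an unadjusted p under 0.05 in either fit. Creb1 against controls had to keep its sign and move by no more than its SE, and list counts had to stay similar. The dam-number set and the omission of dams 9_6 to 9_10 were chosen after seeing the data. No paired analysis was possible because replicate numbers follow accession order and pair no samples across groups. Litter as a random effect and the dam-number set were the blocks fitted.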
